A study of Homo sapiens with 6 samples.

Results

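Open chromatin was examined at 8 genes of the transforming growth factor β (TGF-β) pathway, a list given by name, out of 20033 protein-coding genes of GENCODE release 44. They are the ligands TGFB1 and TGFB2, the receptor TGFBR2, the signal transducer SMAD3, the inhibitors SMAD7 and SKIL, and the target genes TGFBI and THBS1. The window of a gene was its body with 20 kb on either side, and the 8 windows covered 814 kb of hg38. ATAC-seq, which marks open chromatin by the DNA that Tn5 transposase can reach, was done on MCF10A cells, an established non-tumorigenic human mammary epithelial line of wild-type genotype. About 50000 cells per treatment were held in phosphate-free buffer for 30 min and then for a further 30 min either without additive (Ctrl), with 50 μM of the Zn2+ chelator tris(2-pyridylmethyl)amine (TPA) or with 30 μM ZnCl2. There were 2 libraries in each group and 6 in all, and since the labels do not say that replicates came from separate cultures, the p-values measure only the spread between these libraries.

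TGF-β ligands are secreted in a latent form and, once released, bind a type II receptor (TGFBR2) that recruits and phosphorylates a type I receptor. The activated receptors phosphorylate SMAD2 and SMAD3, which join SMAD4, enter the nucleus and bind DNA elements containing CAGAC, often beside AP-1 sites. In mammary epithelial cells the pathway is known for growth arrest and for epithelial-mesenchymal transition, and the MH1 domain by which SMAD3 binds DNA holds a Zn2+ ion.

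The files hold open regions called by the HMMRATAC program in each library separately, with a whole-number score of at least 30 per region and no read counts, so sequencing depth is unknown. List length was the only measure of yield, and it differed within groups: Ctrl replicates 1 and 2 had 25031 and 44641 regions, TPA 35902 and 41376, and ZnCl2 38069 and 18887. A region was therefore ranked inside its own list, and its percentile is the percent of that library's regions with a lower score. ZnCl2 replicate 2 and Ctrl replicate 1 stand apart by their short lists, so the members' start-site values are given for every library. With 2 libraries against 2, the exact permutation test cannot give a two-sided p under 0.333, so no single comparison could pass a usual threshold, and results are described by whether the groups overlap, beside the same share over all coding genes or regions.

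The 8 windows held 251 called regions, with 36 and 48 in Ctrl, 48 and 50 in TPA, and 46 and 23 in ZnCl2. Merging all libraries gave 55 regions, or 6.75 per 100 kb against a median of 2.91 over the windows of all coding genes. Of the 55, 8 lay over a member's start site, 25 in an intron, 6 over an exon, 11 upstream and 5 downstream. In all 6 libraries 21 were open (38.2%; 32% of the 49527 merged regions of the genome), and 7 were open in 1 library (12.7%; 16.7% of all). One of the 21, at -19.1 kb of TGFBI, reaches into the window by the call of Ctrl replicate 2 alone, the calls of the other 5 libraries lying beyond the 20 kb flank, and without it 20 of 54 were open in all 6. SMAD3 had the most, with 14 regions in 171 kb, and SKIL had 1 region, at its start site, in 79.5 kb. TGFBI was the most densely covered for its size, with 9 regions in 74.8 kb. A region covered the start site of 6 and 8 of the 8 members in the Ctrl libraries, 7 and 7 in TPA and 8 and 8 in ZnCl2, where 50.5% and 60.8%, 54.5% and 56.5%, and 59.6% and 46.3% of coding genes were covered.

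The labelled cell type was checked by whether a region covered the start site of marker genes, which is a measure of access and not of expression. Start sites of the basal epithelial genes LAMB3 and ITGB4 were open in 6 of 6 libraries, KRT5 in 5 and KRT14 in 4, while EPCAM was open in 4 and CDH1 in 3. TP63, also a basal marker, had no region over any annotated start. No library had a region over the start site of the fibroblast genes COL1A2, DCN and LUM, the blood genes PTPRC and CD3E or the liver genes ALB and APOA1.

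The regions that were open in both TPA and in neither Ctrl library are shown first, since no other region of the windows was called in every library of one of these groups and in none of the other. There were 3, all outside promoters, in introns of TGFB2 and upstream of TGFBR2. The central 300 bases of the part called in both TPA libraries are printed on the plus strand of hg38, with AP-1 sites (TGANTCA) and CAGAC, on either strand (GTCTG on the strand shown), in capitals. Such matches are descriptions of the letters and not of a bound factor.
TGFB2 intron at +28.6 kb, chr1:218374561-218374860: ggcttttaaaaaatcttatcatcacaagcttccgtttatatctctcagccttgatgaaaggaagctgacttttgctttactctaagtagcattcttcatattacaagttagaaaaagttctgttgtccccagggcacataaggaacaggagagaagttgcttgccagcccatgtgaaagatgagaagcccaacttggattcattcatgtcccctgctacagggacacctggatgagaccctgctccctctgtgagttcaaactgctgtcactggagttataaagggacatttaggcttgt
TGFB2 intron at +80.1 kb, chr1:218425901-218426200: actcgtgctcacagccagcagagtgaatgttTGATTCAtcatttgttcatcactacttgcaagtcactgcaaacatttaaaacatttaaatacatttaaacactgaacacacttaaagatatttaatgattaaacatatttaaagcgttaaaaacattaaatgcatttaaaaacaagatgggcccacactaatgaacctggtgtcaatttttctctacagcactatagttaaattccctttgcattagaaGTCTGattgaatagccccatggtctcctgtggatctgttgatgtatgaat
TGFBR2 upstream at -9.99 kb, chr3:30596201-30596500: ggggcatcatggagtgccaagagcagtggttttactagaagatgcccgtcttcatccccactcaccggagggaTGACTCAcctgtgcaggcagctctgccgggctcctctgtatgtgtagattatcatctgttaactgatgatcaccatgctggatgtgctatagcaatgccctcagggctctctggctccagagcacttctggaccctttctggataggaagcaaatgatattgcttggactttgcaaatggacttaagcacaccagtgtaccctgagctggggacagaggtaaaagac

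The palindromic Smad-binding element GTCTAGAC, which reads the same on both strands, occurred in 4 of the 55 window regions (7.27%) against 1.72% of all merged regions. The window regions were wider, with a median of 2540 bp against 1830 bp, and per length they held 0.198 elements per 10 kb against 0.0660 over all merged regions, a rate that rests on these 4 sites. In the central 300 bases none of the 55 held the element, and 0.218% of all did, a share too low for 55 regions to be compared with. The 4 sites are printed with 11 bases on either side and the element in capitals, because they are where the pathway's own DNA element lies in open chromatin of its genes. SMAD7 is shown on the minus strand, in the direction of its transcription, and the others on the plus strand.
TGFB2 intron, chr1:218375109-218375138: tttagtcatctGTCTAGACagacgagttca
SMAD3 exon-overlapping region, chr15:67169206-67169235: ttcgtggggttGTCTAGACcctgtgactga
SMAD7 start-site region, chr18:48952207-48952236: agcgacagggtGTCTAGACggccacgtgac
TGFBI intron, chr5:136039897-136039926: ccatgtcagatGTCTAGACgttatgggtct
The SMAD7 element, at -1253 bp from the start, lay inside a called region in 6 of 6 libraries. The last base of the TGFB2 element is also the first of a CAGAC. This element lay in the intronic region at +28.6 kb and was inside a call in both TPA libraries alone. The SMAD3 element was inside a call in TPA replicate 2 alone and the TGFBI element in Ctrl replicate 2 alone. AP-1 sites stood in the central 300 bases of 30.9% of the window regions and 27.0% of all, and CAGAC in 50.9% and 48.0%.

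TGFB1 (ENSG00000105329.11, chr19:41301587-41353922, minus strand) encodes the most widely expressed TGF-β ligand. Its start-site region had percentiles of 20.4 and 61.2 in Ctrl, 6.68 in TPA replicate 2, and 65.7 and 9.41 in ZnCl2. TPA replicate 1 had no region there, and its nearest call was 9559 bp away. Ctrl and ZnCl2 overlapped with a wide spread inside each, with a difference in means of -3.23 points (exact permutation test, p = 1) that ranged from -31.4 without ZnCl2 replicate 1 to 24.9 without ZnCl2 replicate 2, and was -23.6 and 17.2 without Ctrl replicates 1 and 2 in turn, and with a value missing in TPA neither comparison with TPA was tested. Higher in the lists was a region at -8999 bp, which covers the start of the neighbouring gene B9D2 and stood at 91.8 and 93.0 in Ctrl, 92.1 and 94.4 in TPA and 76.8 and 72.9 in ZnCl2. Both ZnCl2 libraries were below the other 4 at that shared region. The intronic region at +41.7 kb covers the start of CCDC97, so calls in this window are not all assignable to TGFB1.

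TGFB2 (ENSG00000092969.12, chr1:218345336-218444619, plus strand) encodes the ligand TGF-β2. Its start-site region was called in every library, at percentiles of 37.1 and 77.8 in Ctrl, 58.0 and 54.6 in TPA and 75.1 and 48.9 in ZnCl2, and the groups overlapped. The TPA values lay between the Ctrl values, with a difference in means of -1.18 points (exact permutation test, p = 1). It was -21.5 without Ctrl replicate 1, 19.2 without Ctrl replicate 2, -2.86 without TPA replicate 1 and 0.497 without TPA replicate 2, so it has no stable sign. Inside the gene and beyond its end the picture differed. The intronic region at +30.8 kb stood at 78.9 and 94.5 in Ctrl, 95.5 and 97.6 in TPA and 80.6 and 72.9 in ZnCl2. The next region, at +34.6 kb, had 91.3 and 94.9 in Ctrl, 96.8 and 96.7 in TPA and 79.1 and 68.0 in ZnCl2. In both regions each TPA library was above the other 4. A region 116.9 kb from the start, downstream of the gene, had 20.4 and 69.0 in Ctrl, 70.3 and 72.9 in TPA and 28.1 and 21.6 in ZnCl2, with Ctrl replicate 2 close to the TPA values.

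The 2 TGFB2 regions called with TPA alone ranked low. The region at +28.6 kb (chr1:218373921-218375470) was at a percentile of 3.39 in TPA replicate 1 and of 0 in replicate 2, where its score of 30 was the lowest in the list. The region at +80.1 kb (chr1:218425471-218426620) was at 0 and at 15.5. Neither was called in ZnCl2. For the first, calls in the other 4 libraries began 631 to 1071 bp away, and for the second the nearest were 26961 bp away or more. Both lie at the weakest end of the TPA lists, and neither was among the 18887 highest scoring regions of a library, the number that the shortest list holds.

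TGFBR2 (ENSG00000163513.19, chr3:30606601-30694142, plus strand) encodes the type II receptor. Its promoter, 300 bases around the start as given by RefSeq on GRCh38.p14, was the only one among the 8 members to hold an AP-1 site, 6 bases before the start, which is in capitals on the plus strand. An AP-1 site is found in 7.71% of the 35116 RefSeq promoters, and GTCTAGAC in 0.202% and in none of the members' promoters.
TGFBR2 promoter, chr3:30606351-30606650: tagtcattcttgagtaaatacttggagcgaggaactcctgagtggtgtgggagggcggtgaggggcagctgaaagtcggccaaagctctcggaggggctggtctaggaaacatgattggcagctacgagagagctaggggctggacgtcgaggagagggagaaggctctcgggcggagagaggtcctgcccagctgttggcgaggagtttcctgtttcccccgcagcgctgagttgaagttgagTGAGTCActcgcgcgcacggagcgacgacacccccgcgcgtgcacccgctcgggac
The region over this start had percentiles of 89.3 and 93.4 in Ctrl, 82.9 and 86.5 in TPA and 90.6 and 60.5 in ZnCl2. Both TPA libraries were below both Ctrl libraries, while ZnCl2 replicate 1 was with Ctrl and ZnCl2 replicate 2 below all others. The means were 84.7 ± 2.54 (SD, n = 2) in TPA and 91.4 ± 2.86 (SD, n = 2) in Ctrl, a difference of -6.70 points (exact permutation test, p = 0.333; Benjamini-Hochberg adjusted over 9726 genes, 0.988). With percentiles taken inside an equal number of regions per list it was -16.2 points, and inside the regions open in all 6 libraries -16.1. These are other scales than that of the -6.70. The median difference over all genes was -3.37 points among regions open in all 6 libraries and -0.158 over all regions. ZnCl2 overlapped Ctrl.

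Upstream of TGFBR2, the TPA-only region at -9.99 kb (chr3:30596071-30596610) was at percentiles of 45.1 and 32.2 in the TPA libraries, the highest of the 3. It is 540 bp wide and lies beside a region at -8.44 kb that was open in 5 of 6 libraries. The nearest Ctrl calls were 291 and 111 bp away there. In ZnCl2 the nearest calls were 311 and 8491 bp away. The intronic region at +51.1 kb stood at 0 and 63.0 in Ctrl, 70.3 and 72.9 in TPA and 38.4 in ZnCl2 replicate 1, with none in replicate 2. The TPA values were above both Ctrl values there, and Ctrl replicate 1 was at the bottom of its list. In ZnCl2 replicate 2 the start site was the only place in the TGFBR2 window with a call.

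**Figure D1:**
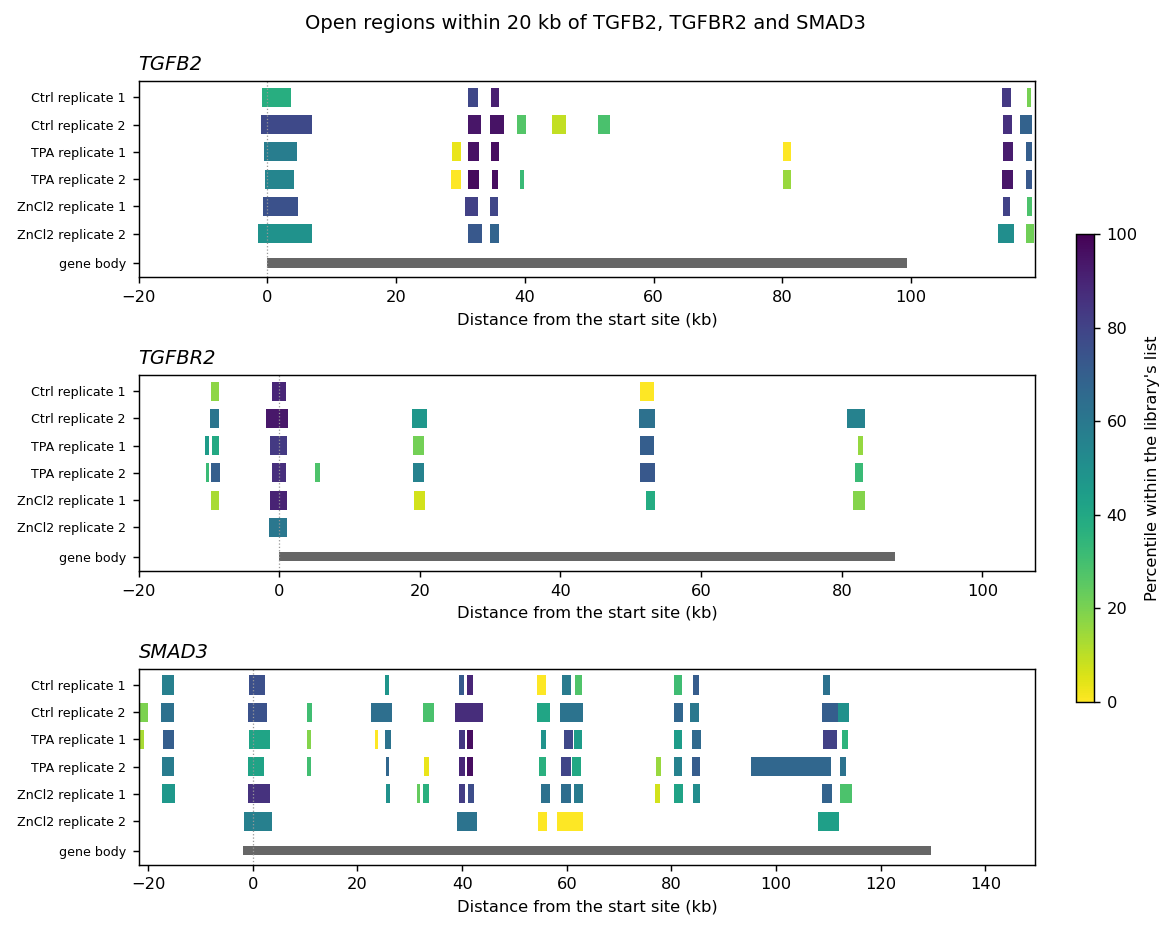
Called regions in the TGFB2, TGFBR2 and SMAD3 windows, with distance from the start site in kb on the horizontal axis, 1 line of bars per library, bar length as called width and color as percentile within the library's list (0 to 100). The yellow to light green bars near +28.6 and +80.1 kb of TGFB2 and the narrow bars at -9.99 kb of TGFBR2 appear in the 2 TPA libraries alone, and the SMAD3 start-site bar is lighter in both TPA libraries than in Ctrl and ZnCl2.

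SMAD3 (ENSG00000166949.17, chr15:67063763-67195173, plus strand) encodes the DNA-binding transducer activated by the receptors. Of the 5 members with a start-site region in all TPA and Ctrl libraries it had the largest difference. Its start-site region had percentiles of 75.5 and 74.7 in Ctrl, 41.5 and 42.0 in TPA and 85.8 and 57.0 in ZnCl2. Both TPA libraries were below the other 4, and the replicates inside TPA and inside Ctrl lay within 1 point of each other. The means were 41.7 ± 0.344 (SD, n = 2) in TPA and 75.1 ± 0.573 (SD, n = 2) in Ctrl, a difference of -33.4 points (exact permutation test, p = 0.333, the smallest possible; Benjamini-Hochberg adjusted over 9726 genes, 0.988). By rank the region was number 5860 and 11011 in Ctrl, 20334 and 23278 in TPA, and 5284 and 7777 in ZnCl2. Among the 18887 highest scoring regions of each library it was therefore kept in both Ctrl and both ZnCl2 libraries and in neither TPA library. ZnCl2 replicate 2 holds 18887 regions in all, so any call there was kept. The cut takes a larger part of the Ctrl replicate 1 list (25031 regions) than of the TPA lists (35902 and 41376). The Ctrl replicate 2 list (44641 regions) is longer than these. Ranks and this cut therefore depend in part on list length. Against ZnCl2 the TPA difference was -29.6 points (exact permutation test, p = 0.333), or -44.0 without ZnCl2 replicate 2 and -15.2 without ZnCl2 replicate 1. Among regions open in all 6 libraries, which is another scale, the differences were -39.8 points from Ctrl and -49.5 from ZnCl2. The medians over all genes there were -3.37 and -4.26 points.

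Width did not separate TPA from Ctrl at this start. The called width over the SMAD3 start was 2920 and 3530 bp in Ctrl, 4050 and 2970 bp in TPA and 4200 and 5230 bp in ZnCl2, with TPA and Ctrl overlapping. Both ZnCl2 widths were above both Ctrl widths, as in 10.9% of coding genes. The start used was that of the canonical transcript, and SMAD3 has 18 annotated starts. The 5′ end of the gene record, 1.8 kb further upstream, lay under no region in any of the 6 libraries. The promoter is printed from RefSeq (GRCh38.p14, plus strand, CAGAC in capitals), chosen after its values were seen because the member's difference lies there.
SMAD3 promoter, chr15:67065352-67065651: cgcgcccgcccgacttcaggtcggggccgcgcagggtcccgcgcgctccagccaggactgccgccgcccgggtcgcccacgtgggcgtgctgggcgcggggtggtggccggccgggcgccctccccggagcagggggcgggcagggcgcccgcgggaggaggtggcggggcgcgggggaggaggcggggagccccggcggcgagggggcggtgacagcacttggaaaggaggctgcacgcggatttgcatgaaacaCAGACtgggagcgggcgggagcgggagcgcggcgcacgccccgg
It holds no AP-1 site, 1 CAGAC and 80.3% G and C, where the median over all RefSeq promoters is 58.7% and over the 8 members 71.3%.

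Away from its start, 2 SMAD3 regions ranked higher with TPA. The intronic region at +38.6 kb was at 89.3 and 87.2 in Ctrl, 96.8 and 96.8 in TPA and 82.1 and 62.1 in ZnCl2. The exon-overlapping region at +58.0 kb was at 58.9 and 62.1 in Ctrl, 78.4 and 79.7 in TPA and 64.8 and 0 in ZnCl2. At both, each TPA library was above the other 4, the reverse of the order at the start site. Of the 13 SMAD3 regions besides the start site, 2 were above Ctrl in this way, none was below and 6 overlapped. The other 5 were not called in all 4 libraries. Over the genome 33.3% of regions away from coding starts were higher with TPA and 6.17% lower, so a higher rank there is not particular to SMAD3. A weak intronic region at +10.3 kb (chr15:67075901-67077000) was called in Ctrl replicate 2 and in both TPA libraries and in neither ZnCl2 library.

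SMAD7 (ENSG00000101665.10, chr18:48919853-48950965, minus strand) encodes the inhibitory SMAD, itself an early target of the pathway. A region covered its start in Ctrl replicate 2 at a percentile of 72.7, in TPA replicate 1 at 50.4 and in ZnCl2 at 49.9 and 46.6. In Ctrl replicate 1 and TPA replicate 2 the nearest call ended 230 and 73 bp from the start, so these libraries had open chromatin beside it and not over it. By calls over the start itself, the difference of TPA replicate 1 from Ctrl replicate 2 was -22.3 points, with 1 value in each group and no test. By the highest call in the merged region around the start, called in all 6 libraries, the means were 59.2 in TPA and 53.4 in Ctrl, with overlap and the opposite sign. A region over an exon at +5.67 kb stood at 54.7 and 82.6 in Ctrl, 86.9 and 83.0 in TPA and 68.4 and 38.5 in ZnCl2. TPA replicate 2 was above Ctrl replicate 2 there by under 1 point. The region at -2.97 kb was the single one in the 8 windows, away from coding start sites, at which both TPA libraries (15.9 and 15.5) were below both Ctrl libraries (20.4 and 41.2).

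SKIL (ENSG00000136603.15, chr3:170357342-170396835, plus strand) encodes SnoN, a corepressor that binds SMAD proteins. Its start-site region, the only one in its window, had the highest median among the members, at 94.5 and 91.5 in Ctrl, 89.3 and 93.6 in TPA and 89.0 and 77.9 in ZnCl2. Both ZnCl2 libraries were below both Ctrl libraries, and TPA overlapped Ctrl. The ZnCl2 difference was -9.59 points (exact permutation test, p = 0.333) and was -4.04 without ZnCl2 replicate 2 and -15.1 without ZnCl2 replicate 1. TPA was above ZnCl2 by 7.99 points, or by 2.44 and 13.5 without these libraries in turn.

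TGFBI (ENSG00000120708.17, chr5:136028988-136063818, plus strand) encodes an extracellular matrix protein named for its induction by TGF-β. Its start-site values were 52.4 and 89.8 in Ctrl, 86.9 and 40.1 in TPA and 88.5 and 68.0 in ZnCl2, and all groups overlapped. The widest differences there were between replicates. The low value of TPA replicate 2 belongs to a call that ends at position 136030781, and the next call of that library, from 136030872, lies in the same merged region at 78.2. By the highest call in that merged region the TPA difference from Ctrl was 11.5 points, against -7.60 by the call over the start, both with overlap, so its sign depends on this choice. The region at -19.1 kb ranked higher than the start in every library. It lies beyond the flank in all libraries but Ctrl replicate 2. Its percentiles were 97.8 and 98.2 in Ctrl, 98.5 and 99.2 in TPA and 95.4 and 87.7 in ZnCl2. The region at -13.7 kb stood at 58.9 and 80.1 in Ctrl, 87.4 and 84.3 in TPA and 49.9 and 4.90 in ZnCl2. The region at -6.39 kb had 95.0 and 96.1 in Ctrl, 98.2 and 96.7 in TPA and 88.2 and 86.3 in ZnCl2. At these regions the order was ZnCl2 below Ctrl below TPA with no overlap between any pair of groups. At -19.1 and -6.39 kb the lower TPA value was above the higher Ctrl value by under 1 point. Of all regions away from coding starts, 33.3% had TPA above Ctrl, 21.4% ZnCl2 below Ctrl and 50.6% TPA above ZnCl2. The share with the full order was not taken. An intronic region at +6.61 kb (chr5:136035602-136038251) was called in both TPA libraries and in Ctrl replicate 2, and in neither ZnCl2 library.

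THBS1 (ENSG00000137801.11, chr15:39581079-39599466, plus strand) encodes thrombospondin-1, which is both a target of TGF-β and an activator of the latent ligand. Ctrl replicate 1 had no region within 43592 bp of its start, and Ctrl replicate 2 had one at a percentile of 56.9. The values were 71.3 and 58.6 in TPA and 46.8 and 4.90 in ZnCl2, and both TPA libraries were above both ZnCl2 libraries. The difference of 39.1 points (exact permutation test, p = 0.333) was 18.2 without ZnCl2 replicate 2 and 60.0 without ZnCl2 replicate 1. The region was called in 5 of 6 libraries, and ZnCl2 replicate 2 held it near the bottom of its list.

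**Figure D2:**
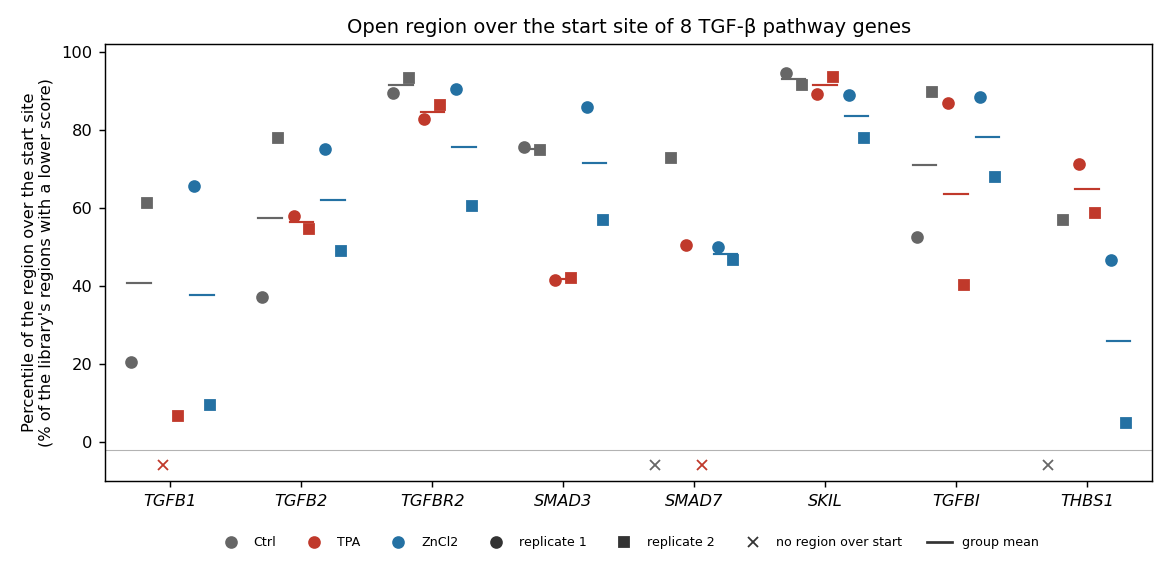
Percentile of the open region over the start site of each gene (vertical axis, percent of the library's regions with a lower score), with 1 point per library colored by group, circles for replicate 1, squares for replicate 2, a line for the mean where both replicates have a value, and crosses for libraries with no region over the start. For SMAD3 both TPA points (41.5 and 42.0) lie under the 4 others, while the points of TGFB1 and TGFBI spread widely inside groups.

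Over the libraries with a call (5 for THBS1 and TGFB1, 4 for SMAD7 and 6 for the others), the members' median start-site percentiles ran from SKIL (90.4) through TGFBR2 (87.9), TGFBI (77.5), SMAD3 (65.9), THBS1 (56.9), TGFB2 (56.3) and SMAD7 (50.2) to TGFB1 (20.4). The range of every member overlapped that of the next in this order, so no pair of neighbours was separated. Scores were not adjusted for region width. For 5 of the 8 members (62.5%) the start was covered in all 6 libraries, against 43% of coding genes. By the mean absolute difference in percentile over the 6 libraries, the coding genes most like these 5 members, among 8612, were URI1 for TGFB2 (3.36 points), RPL13A for TGFBR2 (1.90), CDH24 for SMAD3 (2.98), PPP6R3 for SKIL (1.25) and MRPL16 for TGFBI (7.45).

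Counting over members, 5 had a start-site region in all 4 TPA and Ctrl libraries, and both TPA values were below both Ctrl values in 2 of them, TGFBR2 and SMAD3, and above in none. Among coding genes the shares were 22.3% below and 11.4% above. The median difference was -6.70 points over the 5 members and -0.158 over all genes tested. For the same 5 members by the highest call in the merged region over the start it was -1.60, so the members' median depends on how the call at a start is taken. Among regions open in all 6 libraries the same count was 2 below and none above of 5, where 36.9% of genes were below and 13.8% above. For ZnCl2 against Ctrl, 1 of 6 members, SKIL, was below and none above, where 13.1% of genes were below and 2.6% above. The medians were -3.49 for the members and -2.78 for all. Without ZnCl2 replicate 1, 4 of 6 were below, and without Ctrl replicate 1, 6 of 8. Leaving out replicate 2 of either group gave 2 above and 1 below of 6. Counts with a library left out can by construction only stay or rise, and no share of all genes stands beside them. With a library left out the members' median ranged from -16.8 to 14.0 points. Among regions open in all 6 libraries TGFBR2 and SKIL were below, 2 of 5, with 17.7% of genes below and 23.2% above, and the medians became 9.77 and 0.644. For TPA against ZnCl2, SKIL and THBS1 were above and SMAD3 below among 6 members, with 21.4% and 17.8% of genes, and medians of 1.11 and 1.71. When percentiles were taken only among regions open in all 6 libraries, this last split became 1 above (SKIL) and 2 below (TGFB2 and SMAD3) of 5, and the gene shares became 17.5% above and 41.6% below. The comparisons share libraries and are not independent.

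By width, the start-site regions of TGFB2, TGFBR2, SMAD3, SKIL and THBS1 were narrower in both TPA than in both ZnCl2 libraries, 5 of 6 members compared. This is the common pattern, found at 55.2% of coding genes, and the median start-site width over all genes was 1.83 and 1.88 kb in TPA and 2.15 and 2.60 kb in ZnCl2. No member was narrower or wider in both TPA than in both Ctrl libraries, where 16.6% of genes were narrower and 1.9% wider. Against Ctrl, no member was narrower with ZnCl2, and 2.47% of genes were. None was wider in TPA than in ZnCl2, where 2.56% of genes were. TGFB2 had wide start-site regions, from 4420 to 8390 bp, and those of SKIL were from 2260 to 3230 bp. In every library both were wider than the median over all genes, which ran from 1690 to 2760 bp.

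Of the 55 merged regions, 3 (5.45%) were open in both TPA and neither Ctrl library, against 2.04% over the genome, and none showed the reverse, against 0.703%. With ZnCl2 none of the 55 was gained or lost against Ctrl, where 0.172% and 1.73% of all regions were. Between TPA and ZnCl2, 5 (9.09%) were open in both TPA and neither ZnCl2 library, close to the genome's 9.73%, and none in the reverse, against 0.991%. These 5 are the 3 TPA regions described and the weak intronic regions of SMAD3 and TGFBI. With the same number of regions taken from each list, 18887, TPA had 0 gained and 1 lost against Ctrl (1.99% and 2.4% of all regions), ZnCl2 1 and 2 (1.67% and 1.91%), and TPA against ZnCl2 2 and 2 (4.1% and 4.36%). The counts also changed with single libraries. Without Ctrl replicate 2, which has the longest list, 10 regions were open in TPA and not in Ctrl, and without either TPA library 5 were. Without ZnCl2 replicate 1, 17 were open in TPA and not in ZnCl2, and without TPA replicate 1, 8 were. Against Ctrl, 8 regions were lost with ZnCl2 when its replicate 1, or Ctrl replicate 1, was left out. Such counts can by construction only stay or rise, and have no share of all regions beside them.

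**Figure D3:**
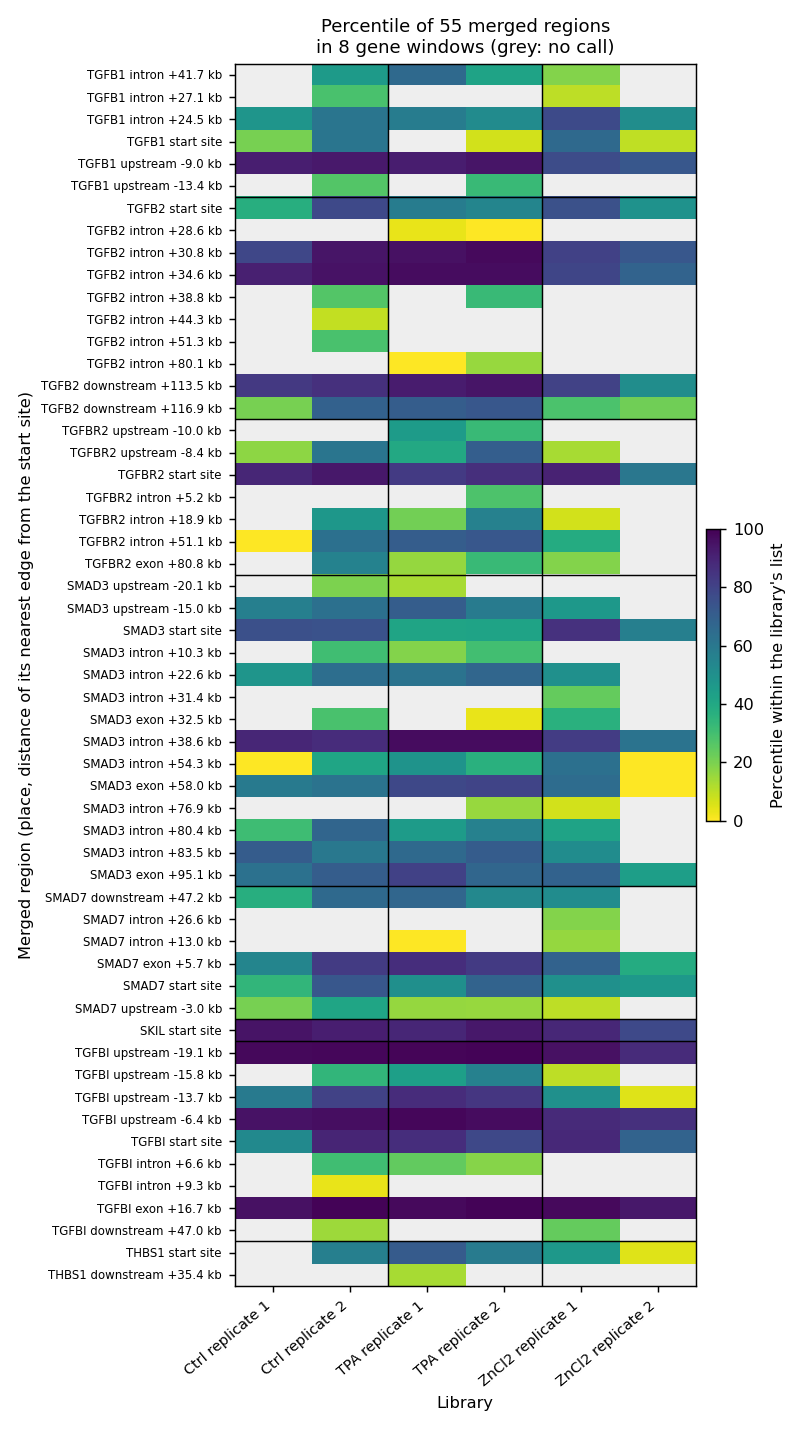
Percentile (color, 0 to 100) of each of the 55 merged regions in the 8 gene windows, in rows named by gene, place and distance of the nearest edge from the start site, across the 6 libraries in columns, with grey where a library had no call. The ZnCl2 replicate 2 column is grey at most weak regions, and the strongest regions, at TGFBI, TGFB2, SKIL and SMAD3, are called in all columns.

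A split of the window regions by place, made after the values were seen, set start sites apart from the rest. Of 45 regions that cover no coding start, 22 were called in all TPA and Ctrl libraries, and 11 of them were higher in both TPA libraries, 1 was lower and 10 overlapped. Over the genome 33.3% of such regions were higher and 6.17% lower, so the genome had the same direction. The median difference was 8.62 points in the windows and 8.92 over all. Among regions open in all 6 libraries, 10 of 14 were higher and none lower, where 42.7% and 11.9% of all such regions were. The medians there were 13.4 points in the windows and 7.05 over all, so how close the windows are to the genome depends on the ranking. Of 10 regions over a coding start, 7 were comparable, none was higher and 2 were lower, at TGFBR2 and SMAD3, where the genome had 11.9% higher and 22.6% lower, and the medians were -1.18 points in the windows and -0.143 over all. Without the region at the edge of the TGFBI window the counts away from starts were 10 higher and 1 lower of 21. The 11 regions higher with TPA belong to TGFB2 (4), TGFBI (3), SMAD3 (2), TGFBR2 (1) and SMAD7 (1). Without Ctrl replicate 1 the regions away from starts became 13 higher and 6 lower of 27. Without Ctrl replicate 2 they became 20 higher and 1 lower of 22. With fewer values that must agree, such counts can only stay or rise, and they have no share of all regions beside them.

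With ZnCl2, 14 of the 45 regions away from coding starts were called in all 4 libraries, and 6 of these were lower than Ctrl in both ZnCl2 libraries and none higher, where 21.4% and 2.66% of all such regions were. The 6 are at TGFB2 (2), SMAD3 (1) and TGFBI (3), and without the region at the edge of the TGFBI window 5 of 13 were lower. The median difference was -12.8 points in the windows and -7.09 over the genome. Among regions open in all 6 libraries the windows had 7 lower and 1 higher, while over the genome the split was 25.9% lower and 20.7% higher. Leaving out ZnCl2 replicate 2, the shortest list, gave 10 lower and 3 higher of 22 comparable regions. Leaving out ZnCl2 replicate 1 gave 11 lower and none higher of 14, and leaving out Ctrl replicate 1 also gave 11 lower and none higher. Counts with a library left out can by construction only stay or rise, and have no share of all regions beside them. Between the treatments, 10 of 14 were higher with TPA and none lower, where 50.6% and 7.19% of all such regions were. Without the edge region 9 of 13 were higher, and without ZnCl2 replicate 2 the counts were 20 and 2. With an equal number of regions per list, 8 of 14 comparable regions away from starts were higher with TPA than Ctrl and none lower. In the same setting 6 of 11 were lower with ZnCl2 than Ctrl and 1 higher, and 8 of 10 were higher with TPA than ZnCl2 and none lower. These counts have no share over all merged regions beside them at this setting, so a difference from the genome was not tested.

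**Figure D4:**
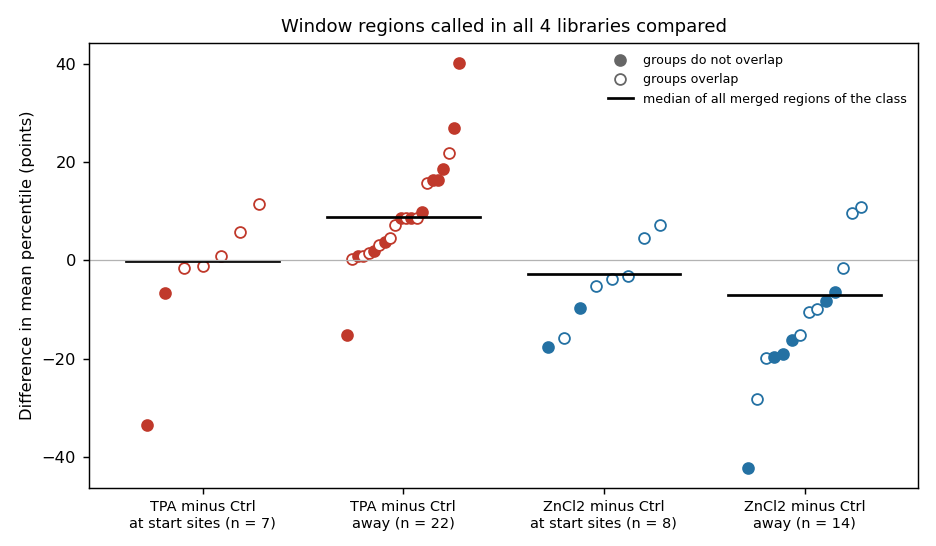
Difference in mean percentile (points) of TPA and ZnCl2 from Ctrl for each window region called in all 4 libraries compared, split by whether the region covers a coding start site, with filled points where the groups do not overlap, open points where they do and black lines for the median of all merged regions of the class. Away from start sites the TPA points lie mostly above 0 around the genome median of 8.92, and the ZnCl2 points mostly below 0.

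The other genes of the pathway, 43 in a list drawn up by role, give the wider setting. A region covered the start in all 6 libraries at 26 of them (60.5%), beside 43% of all coding genes. At 13 the start was covered in 1 to 5 libraries, and at 4 in none. These 4 are LRRC32 (a docking protein for latent TGF-β), ITGB6 (a subunit of an activating integrin), ACVRL1 (an endothelial type I receptor) and PDGFB (a target gene). Of 32 genes called in all TPA and Ctrl libraries, 10 were lower and 5 higher in both TPA libraries, beside the genome's 22.3% and 11.4%. The median difference was -3.55 points, against -0.158 over all genes. Among regions open in all 6 libraries the counts were 13 lower and 4 higher of 26, beside 36.9% and 13.8% of all genes.

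The receptors are described after their values were seen, beside 22.3% of all genes lower with TPA, or 36.9% among regions open in all 6 libraries. The 4 comparable receptors of the list, TGFBR1, TGFBR3, ACVR1B and ACVR2A, were lower in both TPA than in both Ctrl libraries, and among regulators 2 of 10 were lower and 2 higher. Among regions open in all 6 libraries all 4 receptors were lower as well, and of 9 regulators 5 were lower and 2 higher. TGFBR3, a coreceptor that presents ligand, stood at 56.8 and 77.8 in Ctrl, 28.5 and 27.9 in TPA and 63.9 and 17.9 in ZnCl2, a TPA difference of -39.1 points. TGFBR1, the type I receptor, had 96.8 and 96.9 in Ctrl, 85.3 and 90.7 in TPA and 98.2 and 94.2 in ZnCl2. The activin receptor ACVR1B had 54.7 and 80.1, 48.6 and 43.7, and 82.9 and 76.1 in the same order. Without Ctrl replicate 2 the difference was -8.47 points for ACVR1B and -8.27 for ACVR2A, against -21.2 and -21.3 with it, and without Ctrl replicate 1 it was -33.9 and -34.3. The other receptors, ENG and ACVRL1, lacked a start-site region in at least 1 library of each group. None of these differences could reach a p under 0.333 by the exact permutation test.

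Among the regulators, NEDD4L and SMURF2, ubiquitin ligases that limit the pathway, were lower with TPA by -35.3 and -35.0 points, while PPM1A, a phosphatase of SMAD2 and SMAD3, and PMEPA1, an inhibitor induced by TGF-β, were higher by 17.2 and 6.52 points. The gaps of PPM1A and PMEPA1 were narrow, since PPM1A had 47.9 and 82.1 in Ctrl and 82.1 and 82.3 in TPA, and PMEPA1 75.5 and 84.5 against 84.7 and 88.4. Without Ctrl replicate 1 the differences were 0.103 and 2.02 points, and without Ctrl replicate 2 they were 34.4 and 11.02. NEDD4L stood at 42.6 and 64.7 in Ctrl and 21.2 and 15.5 in TPA. SMURF2 had 27.7 and 81.7 in Ctrl against 21.2 and 18.1 in TPA, so Ctrl replicate 1 was near the TPA values, and the difference was -8.00 points without Ctrl replicate 2 and -62.0 without Ctrl replicate 1. CCN2, a matricellular target gene, had 50.1 and 69.0 in Ctrl, 76.0 and 79.0 in TPA and 53.8 and 28.7 in ZnCl2, and its TPA difference of 17.9 points was the largest upward one among the list's genes whose groups did not overlap. It was 8.53 points without Ctrl replicate 1 and 27.3 without Ctrl replicate 2. The targets ID3 and KLF10 were lower with TPA in both libraries, KLF10 by only -0.883 points (99.2 and 99.5 in Ctrl, 98.7 and 98.2 in TPA). FN1 was higher, though its lower TPA value, 34.3, equalled that of Ctrl replicate 2 to 3 digits. Its 6.24 points became 1.72 without TPA replicate 1 and 10.7 without TPA replicate 2. ID3 had 70.7 and 79.6 in Ctrl and 41.5 and 61.1 in TPA, and its difference of -23.9 points was -14.05 without TPA replicate 1.

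For ZnCl2 against Ctrl, 3 of 26 pathway genes were lower and none higher, beside 13.1% and 2.6% of all genes, and among regions open in all 6 libraries 5 were lower and 5 higher, beside 17.7% and 23.2% of all genes. The 3 were ID3, a helix-loop-helix inhibitor (-16.6 points), SMAD2, the partner of SMAD3 (-7.29), and KLF10, an early TGF-β target (-1.68). KLF10 was above the 97th percentile in every library, so its difference is small in size, and it was -1.04 without ZnCl2 replicate 2. For TPA against ZnCl2, 8 of 27 genes were lower and 4 higher, beside 17.8% and 21.4% of all genes, and among regions open in all 6 libraries 14 were lower and 2 higher, beside 41.6% and 17.5%. The largest were CCN2 (36.2 points), PPM1A (14.4) and PMEPA1 (7.83) above, and NEDD4L (-33.6), ACVR1B (-33.3) and TAGLN, a smooth muscle actin-binding target (-32.4), below. Without ZnCl2 replicate 2 those above were 23.7, 7.09 and 3.13 points, and without ZnCl2 replicate 1 PPM1A and PMEPA1 were 21.7 and 12.5. TAGLN was -15.5 without TPA replicate 1 and -49.2 without TPA replicate 2.

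**Figure D5:**
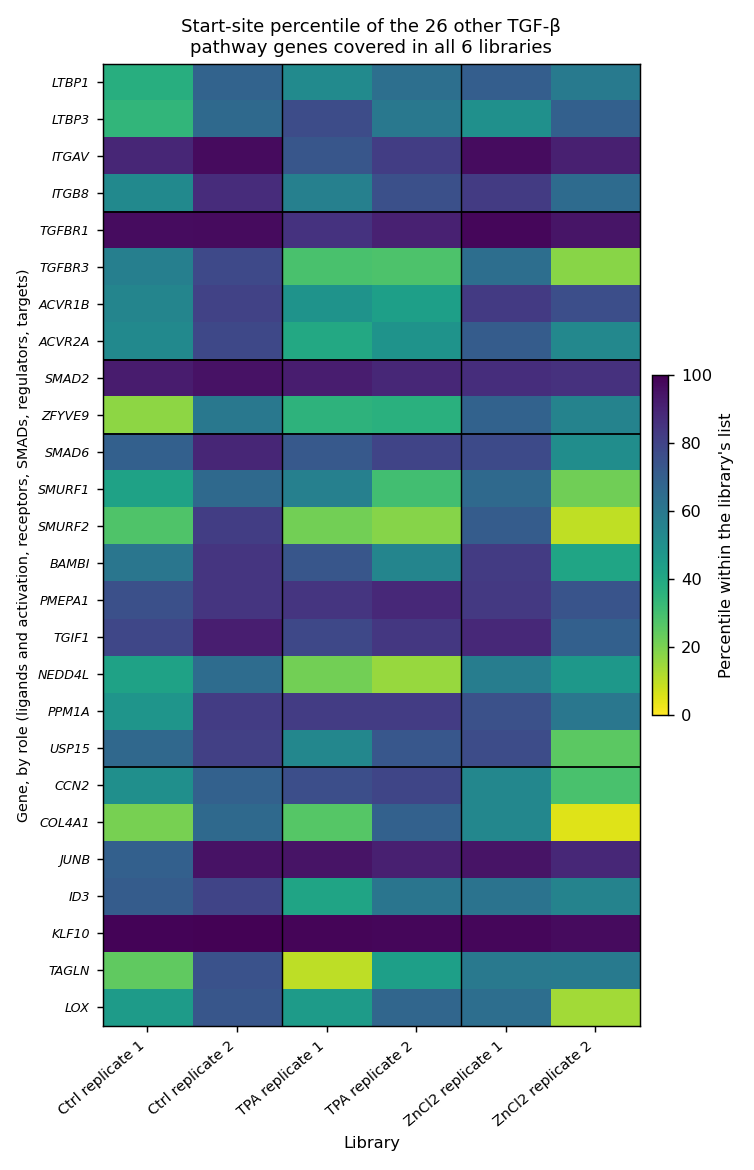
Percentile (color, 0 to 100) of the region over the start site of the 26 other TGF-β pathway genes whose start was covered in all 6 libraries, in rows grouped by role and divided by lines, across the libraries in columns. TGFBR3, ACVR1B, ACVR2A and NEDD4L are lighter in both TPA columns than in both Ctrl columns, and CCN2 is darker.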

How the data were processed

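Per the study methods and the submitters' processing notes, the authors checked reads with FastQC 0.11.8, trimmed adapters with BBDuk, mapped pairs to hg38 with HISAT2 2.1.0 and handled alignments with SAMtools 1.8, and called open regions in each library separately with HMMRATAC, whose version is not given in the sources used here. The deposited lists give region positions and a score for each region, and the kind of score is not given either. The merging across libraries, removal of blacklisted regions and read-count tests that the study ran afterwards were not repeated. The methods call the replicates biological and the results technical. The 8 members and the other gene lists were chosen with earlier results of these data known.

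Calls outside the 22 autosomes and the sex chromosomes were dropped, 72 to 203 per library. Calls that overlapped or touched were merged, and a merged region was open in a library with at least 1 bp of overlap. Positions (1-based) and canonical start sites came from GENCODE release 44. Mean percentiles of the groups were tested by exact permutation (two-sided), with p adjusted by Benjamini-Hochberg over all coding genes with a region in all 4 libraries. Named pathway genes were the 3 with the largest non-overlapping difference per contrast and direction among those called in all 6 libraries, plus those open in none. Other pathway genes named (TGFBR1, ACVR2A, ENG, FN1) were chosen after their values were seen, and some list genes, though counted, are not reported here by name. All 8 promoters matched RefSeq (GRCh38.p14), and motifs were searched on both strands. Alternatives were an equal number of 18887 regions per list, the upper 50% of each list, an overlap of at least 50%, the gene body alone, percentiles among the 15852 merged regions open in all 6 libraries, mid-rank ties, the gene record's 5′ end, a missing call as 0, each library left out, the replicate block and, added after seeing the data, crossed pairing, the highest call around a start, pathway genes with each library left out and the windows without a region at their edge. The steps were tested on simulated data. Python 3.11.15, NumPy 2.4.6, pandas 2.3.3, SciPy 1.17.1 and Matplotlib 3.10.9 were used.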

Additional observations from a re-analysis of the deposited data

How the results depend on the processing

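Among the members' start-site percentile differences without overlap, none changed sign under the other rankings that gave a value, and leaving out a library cannot change the sign of such a difference by construction. Differences with overlap did change sign when a library was left out. Depth is unknown, so precision rests on 2 libraries per group. The gained and lost counts in the windows changed with list length. With an equal number of regions, TPA against Ctrl gave 0 gained and 1 lost in place of 3 and 0, ZnCl2 against Ctrl 1 and 2 in place of 0 and 0, and TPA against ZnCl2 2 and 2 in place of 5 and 0. In the upper 50% of each list, TPA against Ctrl gave 0 gained and 1 lost, ZnCl2 against Ctrl 1 lost, and TPA against ZnCl2 1 lost, and an overlap of 50% also gave 1 lost there.

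For start sites, members below Ctrl with TPA were 1 of 3 at equal number and 1 of 4 by the gene record, and with missing calls as 0, 1 was above. SMAD3, the member with the largest difference, could not be compared at equal number or by the gene record. At equal number both its TPA calls fell below the cut, and by the gene record no region covered its 5′ end. These lower counts therefore do not show a smaller SMAD3 difference. No share of all genes stands beside the counts at these settings. With ZnCl2, 1 was above and 2 below Ctrl at equal number, and 2 were below among common regions. For TPA against ZnCl2, 1 was above at equal number and 1 among common regions, 2 were below among common regions and 2 with missing calls as 0, and 0 were below by the gene record. The median difference of TPA from ZnCl2 among common regions was -22.7 points, against 1.11, and that of ZnCl2 from Ctrl was 10.3 at equal number and 9.77 among common regions, against -3.49, so neither median has a stable sign. Away from coding starts, alternatives chosen after seeing the data gave 0 regions lower with TPA than Ctrl among common regions and 0 at equal number, 1 higher with ZnCl2 than Ctrl in each of these, and 1 lower with TPA than ZnCl2 among common regions.

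Leaving out each library in turn, gained and lost counts ranged from 3 to 10 and 0 to 5 for TPA against Ctrl, 0 to 4 and 0 to 8 for ZnCl2 against Ctrl, and 5 to 17 and 0 to 4 for TPA against ZnCl2. Members above and below ranged from 0 to 1 and 3 to 4, 0 to 2 and 1 to 6, and 2 to 4 and 1 to 4 in the same order, and the medians from -17.9 to -3.10, -16.8 to 14.0 and -12.4 to 10.4 points. Regions away from coding starts ranged from 13 to 20 above and 1 to 6 below, 0 to 3 above and 6 to 11 below, and 11 to 20 above and 0 to 2 below. A group left with 1 library needs fewer agreeing calls or values. By construction this can only keep or raise the gained and lost counts and the counts above and below. With a library left out these counts have no share over all genes or regions beside them, so a difference from the genome was not tested.

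The labels give same-numbered libraries a common number and do not say whether they were prepared together. The correlation of their deviations from group means over 8613 start sites was 0.170 for Ctrl and TPA, -0.460 for Ctrl and ZnCl2 and -0.134 for TPA and ZnCl2. With the replicate number as a block, the mean count per pair was 9 gained and 3.5 lost for TPA against Ctrl, 6 and 11.5 for ZnCl2 against Ctrl, and 14.5 and 3.5 for TPA against ZnCl2, and 2 members were below in both pairs for TPA against ZnCl2. Crossed pairing, added after seeing the data, gave 2.5 gained and 8 lost for ZnCl2 against Ctrl and 14 and 3 for TPA against ZnCl2. The cause of these shifts was not tested.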
